A study of Homo sapiens with 4 samples.

Results

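NF-kB, cytokine and chemokine genes were followed after silencing of TAZ in 2 established lines of human lung adenocarcinoma, A549 and H441. TAZ is a transcriptional co-activator encoded by WWTR1. The set is a list of 42 gene symbols: the NF-kB subunits, their inhibitors and feedback regulators, chemokines, cytokines, 2 cytokine receptors, adhesion molecules and effectors. Members were matched by symbol in the array's annotation, and 40 of the 42 had a probe set with that symbol alone, among 18377 genes on the array. BIRC3 and CSF2 have no signal here, though BIRC3 is among the genes whose promoter windows were searched. The 4 groups were A549 cells with siTAZ, A549 cells with siNTC, the control siRNA, H441 cells with siTAZ and H441 cells with siNTC, each harvested 48 h after transfection and each measured on 1 array. All 4 groups were transfected with Lipofectamine RNAiMAX, a lipid reagent. A549 and H441 are each derived from a single tumour, the sequence of the siRNA is not given in the sources used here, and no group has a replicate.

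NF-kB is a family of dimeric transcription factors held in the cytoplasm by inhibitory IkB proteins until signals from cytokine or pattern-recognition receptors lead to IkB degradation. The released dimers bind kappa-B sites and switch on chemokines, cytokines and adhesion molecules, together with their own inhibitors, which close the response. In the airway and alveolar epithelium this programme recruits neutrophils and monocytes. TAZ has no DNA-binding domain of its own and is known to act mainly through TEAD factors.

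Values are RMA signals on the log2 scale, and a difference is siTAZ minus siNTC within a line unless it is said to be A549 minus H441. Signals of different genes come from different probe sets and are not set against each other. Medians over all probe sets lay between 6.05 and 6.25 on the 4 arrays. WWTR1 read 7.64 with siTAZ and 10.04 with siNTC in A549, and 7.47 with siTAZ and 9.61 with siNTC in H441, so it was 5.27-fold and 4.40-fold lower with siTAZ. Of 10 measured lung epithelial markers, 6 lay at or above the table median (6.13) in A549 and 8 in H441. NKX2-1, NAPSA and SFTPB lay below it in A549, SFTPC lay below it in H441, and SCGB1A1, the club cell secretoglobin, in both lines. Among 6 leukocyte markers PTPRC, CD3D, ITGAM and LYZ were below that median on all 4 arrays, CD68 was above it in both lines, and CD14 read 7.94 with siTAZ and 7.22 with siNTC in A549. Of 7 fibroblast markers 1 reached it in A549 and 4 in H441, and of 4 endothelial markers 0 in A549 and 1 in H441. The part of CD14 in the A549 differences was not tested.

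Of the 40 measured members, 25 reached the table median in both lines, 3 in A549 alone (CXCL5, CCL2 and VCAM1) and 7 in H441 alone (TRAF1, CCL20, CCL28, IL6, IL32, ICAM1 and CHI3L1). The other 5, CXCL10, IL1A, IL1B, TNF and SAA1, stayed below it on all 4 arrays and were not in the fit over both lines. RMA compresses differences between dim signals, so a difference given for an array pair below that median can understate the change. Without detection calls, a dim member cannot be called absent.

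**Figure D1:**
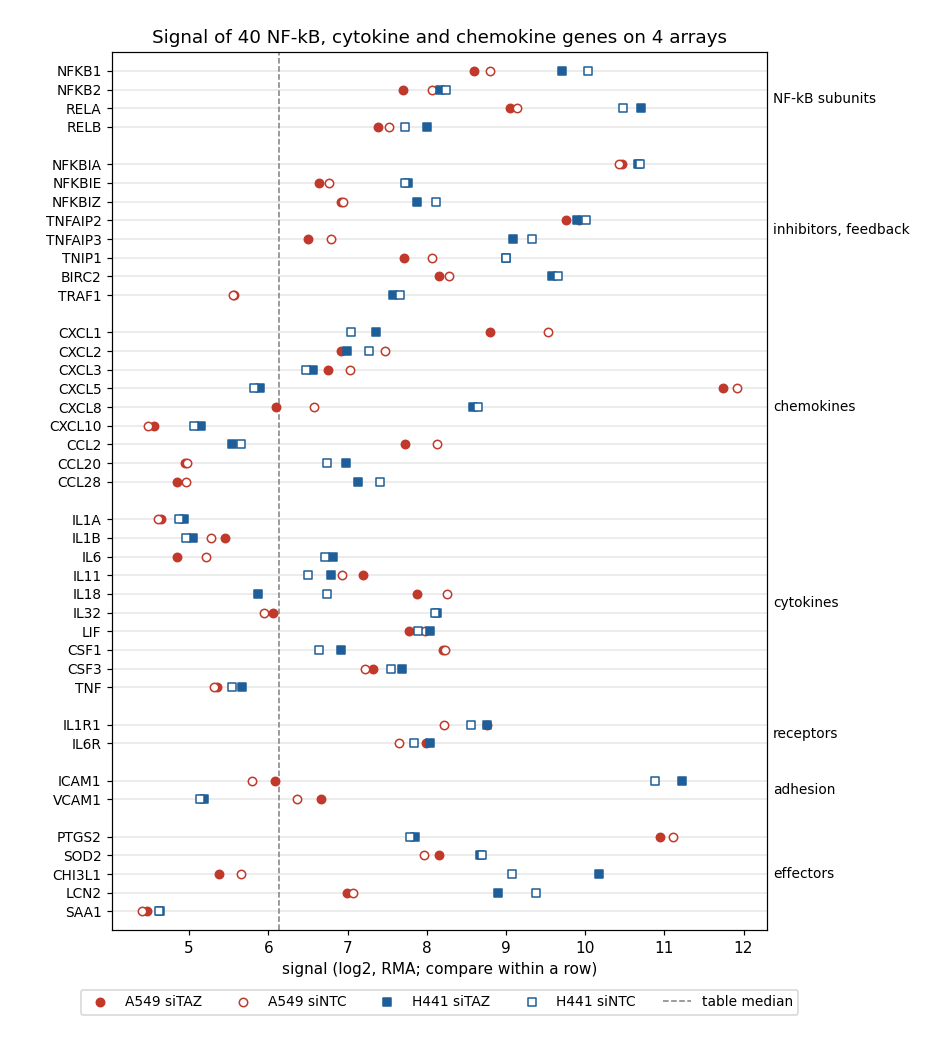
Signal (log2, x axis) of the 40 measured members, 1 row per gene, in order of role; filled circles are A549 siTAZ, open circles A549 siNTC, filled squares H441 siTAZ and open squares H441 siNTC, and the dashed line is the table median of 6.13. Within a row the 2 lines lie far apart for CXCL5, ICAM1, CHI3L1 and PTGS2, while the siTAZ and siNTC points of a line lie close together for most genes.

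Over both lines IL18 was the only member called in the main limma fit, and some alternatives lost that call. IL18 encodes an interleukin of the IL-1 family that is made as a precursor and released after cleavage by caspase-1. Its signal was 7.88 with siTAZ and 8.25 with siNTC in A549. In H441 it was 5.87 with siTAZ and 6.74 with siNTC. The siTAZ array was the lower of the pair in each line, 1.30-fold in A549 and 1.82-fold in H441, where IL18 had the 11th most negative difference of 11911 genes counted. In the limma fit of all 4 arrays with cell line as a block, IL18 fell by 0.62 ± 0.13 on the log2 scale (SE, limma adjusted p = 0.0068). With 1 residual degree of freedom, most of the weight in this SE comes from the other genes and little from IL18 itself.

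IL18 was 1 call among the 35 members in that fit, against 2.47% of all 12740 genes called in either direction and 1.29% called lower, so the share of members called was near the background. The call was lost after cyclic loess (limma adjusted p = 0.12), without the filter on dim genes (0.077) and without cell line in the fit (1). The siTAZ array of H441 lay below the table median for IL18.

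At an unadjusted limma p under 0.05 there were 12 of the 35 members, or 34.3%, against 13.2% of all genes tested. Besides IL18 these were CXCL2, CXCL8, CCL2, NFKB1, TNFAIP3 and LCN2 with estimates below 0 and IL1R1, IL6R, ICAM1, IL11 and CHI3L1 with estimates above 0. These 11 missed the threshold once limma's p was adjusted over all genes, with values from 0.071 for CXCL2 to 0.36 for CCL2. The members were listed with earlier results of these arrays known, so the share is a description.

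Most members counted in A549 were lower with siTAZ, and fewer were in H441. In A549, 21 of 28 members counted were below 0, against 48.4% of all genes counted there, and their median was -0.15 against 0.0051 for all genes. In H441, 14 of 32 were below 0, or 43.8%, against 48.8% of all genes, with a median of 0.029 against 0.0048. Median centring lowered every H441 difference by 0.084. The member median was then -0.055 with 19 of 32 below 0, against -0.084 with 7762 of 11619 below 0 for all genes. The signs in A549 and H441 matched for 19 of the 35 tested members, or 54.3%, against 57.5% of all tested genes. The lines share no array.

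A difference of at least 1.5-fold was seen for CXCL1 alone in A549 (1 of 28 members, 3.57%, against 2.83% of all genes counted), and for CHI3L1 and IL18 in H441 (2 of 32, 6.25%, against 1.45%). These single-array differences have no replicate check.

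**Figure D2:**
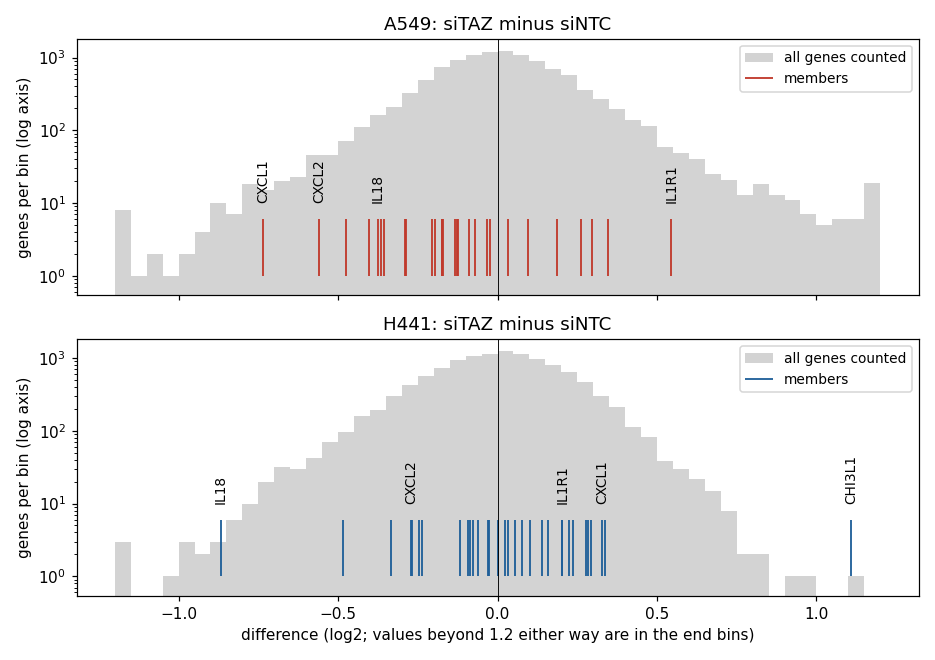
Differences of siTAZ minus siNTC (log2, x axis) of all genes counted in A549 (top) and H441 (bottom) as grey bars on a log count axis, with coloured ticks for the members. Most A549 ticks lie left of 0, with CXCL1 at -0.74 as the lowest, while CHI3L1 at 1.11 and IL18 at -0.87 are the outermost ticks of H441.

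Among the subunits, all 4 signals were lower with siTAZ in A549, by differences of -0.37 to -0.09, and 2 of 4 were lower in H441, as under each scaling tried. NFKB1, which encodes p105 and its product p50, read 8.60 with siTAZ and 8.79 with siNTC in A549. In H441 it read 9.70 with siTAZ and 10.04 with siNTC. The siTAZ array was thus the lower one in both lines, with differences of -0.19 in A549 and -0.34 in H441 (limma adjusted p = 0.31).

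RELA, the p65 subunit with a transactivation domain, read 9.06 with siTAZ and 9.14 with siNTC in A549. In H441 RELA read 10.70 with siTAZ and 10.48 with siNTC. Its differences of -0.09 in A549 and 0.22 in H441 point opposite ways (limma adjusted p = 0.89).

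NFKB2, which encodes p100 and p52 of the non-canonical branch, read 7.70 with siTAZ and 8.07 with siNTC in A549, and 8.16 with siTAZ and 8.24 with siNTC in H441. Its partner RELB read 7.38 with siTAZ and 7.52 with siNTC in A549, and 8.00 with siTAZ and 7.73 with siNTC in H441. The A549 difference of NFKB2 (-0.37) was the largest of the subunits in size there. Neither passed the limma test (adjusted p = 0.45 for NFKB2 and 0.88 for RELB).

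The inhibitors and feedback regulators had small differences. NFKBIA, the IkB-alpha inhibitor that NF-kB itself induces, read 10.46 with siTAZ and 10.43 with siNTC in A549, and 10.67 with siTAZ and 10.69 with siNTC in H441. Its differences were 0.03 in A549 and -0.03 in H441, and that in H441 was above 0 after quantile normalization or cyclic loess. TNFAIP3, the ubiquitin-editing enzyme A20 that restrains the pathway, read 6.50 with siTAZ and 6.79 with siNTC in A549, and 9.09 with siTAZ and 9.32 with siNTC in H441. TNFAIP3 was lower with siTAZ in each line (-0.29 in A549 and -0.24 in H441, limma adjusted p = 0.32).

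TNIP1, an A20-binding protein, differed by -0.36 in A549 and by 0.0030 in H441, where it was below 0 after median centring. NFKBIZ, a nuclear IkB protein that acts as a cofactor of p50, had -0.02 and -0.24, and NFKBIE, a further IkB, had -0.13 and 0.03, also below 0 in H441 after median centring. TNFAIP2 had -0.17 and -0.12, and BIRC2, the ubiquitin ligase cIAP1, had -0.12 and -0.09. TRAF1, an adaptor induced by NF-kB, had -0.09 in H441 and stayed below the table median in A549. In all, 6 of 7 counted in A549 and 6 of 8 in H441 were below 0, against 48.4% and 48.8% of all genes. In H441 they were 8 of 8 after median centring, where 7762 of 11619 genes in all were below 0. They were 5 of 8 after quantile normalization (5423 of 11619 genes) or cyclic loess (5597 of 11537 genes). None passed the limma test.

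**Figure D3:**
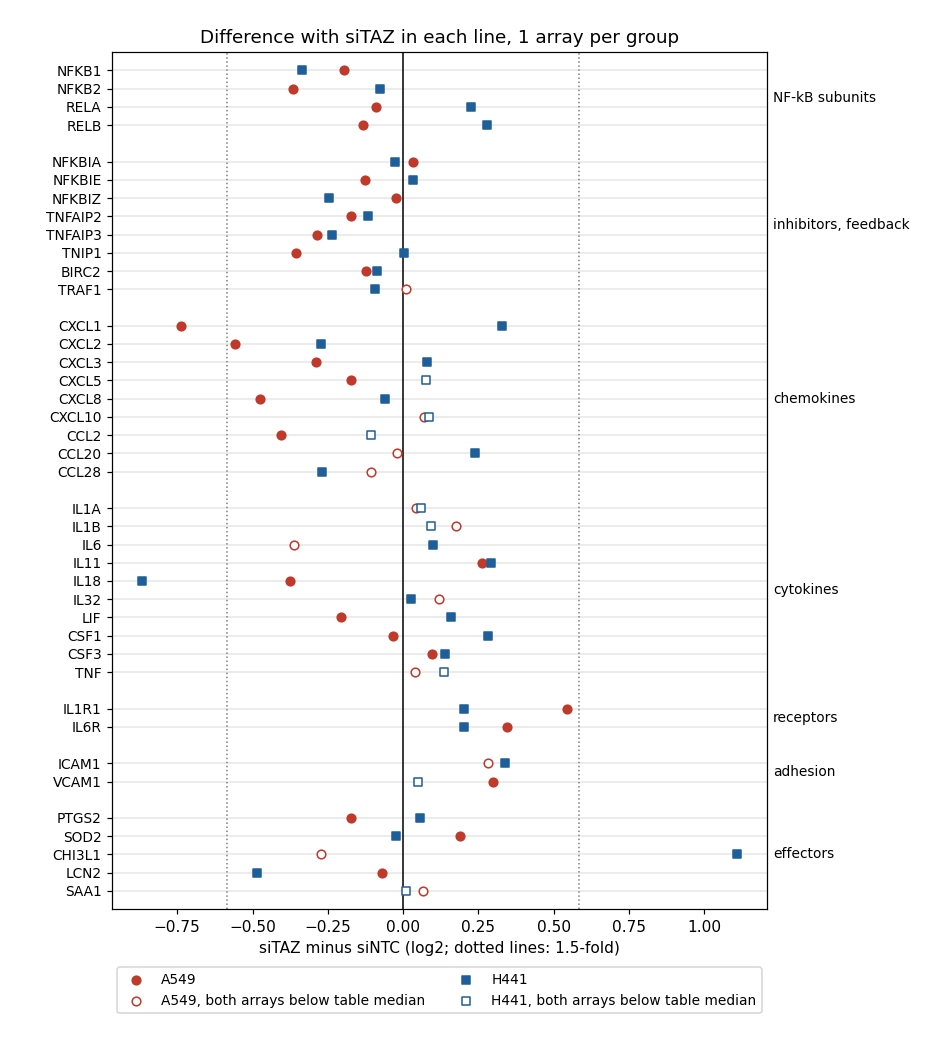
Difference of siTAZ minus siNTC (log2, x axis) for each of the 40 measured members, in order of role; circles are A549, squares H441, open symbols mark pairs of arrays that both lie below the table median, and dotted lines mark 1.5-fold. The A549 circles of the chemokines counted lie left of 0, down to -0.74 for CXCL1, while their H441 squares lie on both sides.

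Of the chemokines, all 6 counted in A549 (CXCL1, CXCL2, CXCL3, CXCL5, CXCL8 and CCL2) were lower with siTAZ under each scaling tried, with a median difference of -0.44. In H441, 3 of 6 counted were lower, 4 of 6 after median centring, with a median of 0.0082 (-0.08 after median centring, -0.0032 after quantile normalization and -0.03 after cyclic loess). Over all genes counted, 48.4% in A549 and 48.8% in H441 were lower, and 7762 of 11619 in H441 after median centring. None of the chemokines passed the limma test over both lines, and CXCL2 passed it after median centring alone (adjusted p = 0.026).

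CXCL1, a neutrophil attractant that signals through CXCR2, read 8.79 with siTAZ and 9.53 with siNTC in A549. In H441 it read 7.36 with siTAZ and 7.04 with siNTC. The siTAZ array was thus the lower one in A549, by 1.67-fold, the 63rd most negative difference of 11405 genes, and the higher one in H441, by 1.25-fold.

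CXCL2, a close paralog with the same receptor, read 6.91 with siTAZ and 7.47 with siNTC in A549, and 6.99 with siTAZ and 7.27 with siNTC in H441. It was lower with siTAZ in both lines, 1.47-fold in A549 and 1.21-fold in H441 (limma estimate -0.42 ± 0.12 SE, adjusted p = 0.071). CXCL3, the third of these paralogs, read 6.75 with siTAZ and 7.04 with siNTC in A549, and 6.56 with siTAZ and 6.48 with siNTC in H441, a difference that was below 0 after median centring.

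CXCL8, interleukin-8, read 6.10 with siTAZ and 6.57 with siNTC in A549, and 8.59 with siTAZ and 8.65 with siNTC in H441. The pair was 1.39-fold apart in A549, where the siTAZ signal lay below the table median, and nearly level in H441. CCL2, a monocyte attractant, read 7.73 with siTAZ and 8.13 with siNTC in A549, and 5.55 with siTAZ and 5.65 with siNTC in H441, below the table median. CXCL5, a neutrophil attractant that is bright in A549, differed by -0.17 there and by 0.08 in H441, where it was dim.

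CCL20, which attracts CCR6-bearing cells, and CCL28, a mucosal chemokine, reached the table median in H441 alone. CCL28 read 4.85 with siTAZ and 4.96 with siNTC in A549, and 7.14 with siTAZ and 7.40 with siNTC in H441. The H441 difference was 0.24 for CCL20 and -0.27 for CCL28. CXCL10, an interferon-induced chemokine, stayed at 4.55 with siTAZ and 4.48 with siNTC in A549, and at 5.14 with siTAZ and 5.06 with siNTC in H441.

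CXCL1, CXCL2, CXCL3, CXCL5 and CXCL8 lie near each other on chromosome 4. Their promoters are shown because these 5 genes were all lower with siTAZ in A549 and differed in sign in H441 as deposited. In H441 CXCL3 (0.08) and CXCL5 (0.08, at dim signals) lay near 0. After median centring both were below 0 there, and CXCL1 alone was above 0. The sequences are RefSeq promoter windows of GRCh38.p14, given from 150 bases before the gene start to the base before it, 5′ to 3′ on the gene's strand. Capitals mark GGAATTTCC, a kappa-B sequence. The stretches are chr4:73869243-73869392 (plus strand), chr4:74099196-74099345 (minus), chr4:74038690-74038839 (minus), chr4:73998678-73998827 (minus) and chr4:73740419-73740568 (plus).
CXCL1: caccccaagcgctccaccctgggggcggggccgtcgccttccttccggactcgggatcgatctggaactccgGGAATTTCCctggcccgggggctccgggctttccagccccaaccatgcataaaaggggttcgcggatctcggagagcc
CXCL2: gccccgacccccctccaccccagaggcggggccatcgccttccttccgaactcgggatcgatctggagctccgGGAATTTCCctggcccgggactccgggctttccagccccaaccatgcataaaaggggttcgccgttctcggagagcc
CXCL3: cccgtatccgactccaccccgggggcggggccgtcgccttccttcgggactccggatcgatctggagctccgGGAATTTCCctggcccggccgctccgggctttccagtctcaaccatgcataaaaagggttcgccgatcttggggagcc
CXCL5: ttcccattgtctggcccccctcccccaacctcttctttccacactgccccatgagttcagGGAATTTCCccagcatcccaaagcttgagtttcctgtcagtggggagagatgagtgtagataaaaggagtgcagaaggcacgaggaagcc
CXCL8: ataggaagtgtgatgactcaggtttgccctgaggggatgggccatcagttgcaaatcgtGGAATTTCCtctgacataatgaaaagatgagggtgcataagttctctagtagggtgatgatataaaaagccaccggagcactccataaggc

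In all 5 windows the match lies on the gene's strand, within positions -91 to -69 counted from the gene start. Over the 129 bases centred on it CXCL1 and CXCL3 were 92.2% identical without gaps. CXCL1 and CXCL2 were 72.1% identical without gaps and 91.5% in an alignment with gaps, which was chosen after seeing the data. CXCL5 and CXCL8 were 32.6% identical to each other without gaps and 48.5% with them. The promoters of CXCL1, CXCL2 and CXCL3 are thus close copies around the match. CXCL1, CXCL2 and CXCL3 differed by -0.74, -0.56 and -0.29 in A549, and by 0.33, -0.27 and 0.08 in H441, where CXCL3 was below 0 after median centring. Whether the probe sets of CXCL1, CXCL2 and CXCL3 share signal from the other paralogs was not tested.

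Outside this cluster the same 9 letters, on either strand, were found in the windows of CXCL10, NFKBIA, NFKB1, ICAM1 and NFKBIZ. These stretches are shown because their A549 differences ran from -0.19 for NFKB1 to 0.28 for ICAM1, against -0.74 to -0.17 for the clustered chemokines, with NFKB1 inside the range of the cluster. CXCL10 and ICAM1 were dim in A549. They are chr4:76023645-76023693 (minus strand), chr14:35404802-35404850 (minus), chr4:102501291-102501339 (plus), chr19:10270914-10270962 (plus) and chr3:101827748-101827796 (plus), with the match in capitals, reverse-complemented in CXCL10, NFKBIA and ICAM1.
CXCL10: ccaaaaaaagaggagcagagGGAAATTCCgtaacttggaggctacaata
NFKBIA: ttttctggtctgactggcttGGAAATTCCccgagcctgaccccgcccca
NFKB1: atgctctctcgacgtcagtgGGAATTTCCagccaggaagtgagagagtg
ICAM1: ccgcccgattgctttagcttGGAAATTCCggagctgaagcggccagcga
NFKBIZ: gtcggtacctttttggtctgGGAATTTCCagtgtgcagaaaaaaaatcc

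The table held 52 windows for 34 of the members, each from 250 bases before to 50 bases after a gene start. GGAATTTCC was found on either strand in 10 of the 52, or 19.2%, against 0.461% of all 35116 windows. The kappa-B consensus of NF-kB was found in 19 of the 52, or 36.5%, against 11.3% of all windows, and it overlapped a 9-letter match in 8 windows. GGAATG, a TEAD sequence, was found in 7 of the 52, against 4928 of all 35116 windows, and overlapped the consensus in LCN2 alone. It was in none of the windows of CXCL1, CXCL2, CXCL3, CXCL5 and CXCL8. The members were listed as NF-kB and inflammatory genes, and some promoters are close copies, so these shares are descriptions. A match says only that the letters are there.

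**Figure D4:**
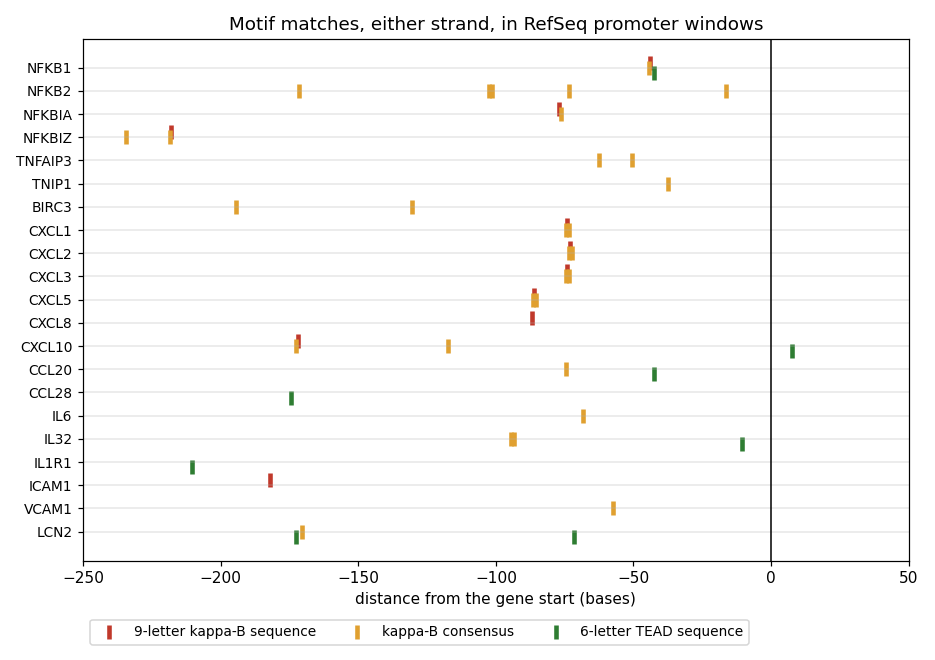
Position of each motif match (x axis, bases from the gene start, either strand) in the RefSeq promoter windows of the members that hold at least 1; red is the 9-letter kappa-B sequence, orange the kappa-B consensus and green the 6-letter TEAD sequence. Genes with several annotated starts have all their windows on 1 row, each from its own start, and the 5 clustered CXCL genes have their red marks within positions -91 to -69.

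Among cytokines and growth factors, 3 of 5 counted in A549 were lower with siTAZ, against 48.4% of all genes counted there. In H441, 6 of 7 were higher, against 6051 of 11911 genes. The count in A549 was 3 of 6 after cyclic loess. That in H441 was 5 of 7 after median centring (3857 of 11619 genes) or cyclic loess (5940 of 11537 genes). IL11, a gp130 cytokine, read 7.20 with siTAZ and 6.94 with siNTC in A549, and 6.79 with siTAZ and 6.50 with siNTC in H441. Its differences of 0.26 and 0.29 were close to each other (limma adjusted p = 0.27). CSF1, the macrophage growth factor, had -0.03 in A549 and 0.28 in H441, and LIF, a further gp130 ligand, had -0.21 and 0.16.

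IL6, the main gp130 cytokine of the acute phase, read 4.85 with siTAZ and 5.21 with siNTC in A549, both below the table median, and 6.82 with siTAZ and 6.72 with siNTC in H441. CSF3, which drives granulocyte production, had differences of 0.10 and 0.14, and IL32, an inducible cytokine, had 0.02 in H441 (-0.06 after median centring and -0.02 after cyclic loess). TNF was measured by 3 probe sets, with differences of 0.04 to 0.06 in A549 and 0.13 in H441, all at dim signals. IL1A and IL1B, the agonists of IL1R1, were dim as well, between 4.60 and 5.45 on the 4 arrays.

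Both receptors were higher with siTAZ in both lines under each scaling tried. IL1R1, the signalling receptor of interleukin-1, read 8.76 with siTAZ and 8.22 with siNTC in A549, and 8.77 with siTAZ and 8.56 with siNTC in H441. The difference of 0.55 in A549 was the largest positive one among the members counted there, and that in H441 was 0.20 (limma estimate 0.37 ± 0.12 SE, adjusted p = 0.12). IL6R, the ligand-binding chain for interleukin-6, read 7.99 with siTAZ and 7.65 with siNTC in A549, and 8.04 with siTAZ and 7.84 with siNTC in H441. Its differences were 0.35 and 0.20 (limma adjusted p = 0.29).

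Of the adhesion genes, ICAM1, a ligand of leukocyte integrins, read 6.08 with siTAZ and 5.80 with siNTC in A549, below the table median, and 11.22 with siTAZ and 10.88 with siNTC in H441. The siTAZ array was the higher one in both lines (limma estimate 0.31 ± 0.12 SE, adjusted p = 0.20). VCAM1, a ligand of the integrin VLA-4, had a difference of 0.30 in A549 and was dim in H441.

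The effectors held the largest difference of the set. CHI3L1, a secreted chitinase-like protein, read 10.18 with siTAZ and 9.07 with siNTC in H441. In A549 it read 5.38 with siTAZ and 5.65 with siNTC, below the table median. Its H441 difference of 1.11 ranked 1st among all 11911 genes counted there in the positive direction, while that in A549 was -0.27. Over both lines CHI3L1 did not pass the limma test (estimate 0.42 ± 0.18 SE, adjusted p = 0.31).

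LCN2, the siderophore-binding lipocalin, read 8.89 with siTAZ and 9.38 with siNTC in H441, and 7.00 with siTAZ and 7.07 with siNTC in A549. LCN2 was thus 1.40-fold lower with siTAZ in H441 and nearly level in A549 (limma adjusted p = 0.32). PTGS2, the inducible cyclooxygenase, differed by -0.17 in A549 and by 0.05 in H441, where it was below 0 after median centring. SOD2, the mitochondrial superoxide dismutase, had 0.19 in A549 and -0.03 in H441, where it was above 0 after quantile normalization. SAA1, an acute phase apolipoprotein, stayed between 4.40 and 4.63 on the 4 arrays.

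The responses of A549 and H441 were at least 1.5-fold apart for 2 of the 35 tested members, or 5.71%, against 3.12% of all tested genes. For CHI3L1 the A549 difference minus the H441 difference was -1.38, the 4th largest in size of 12740 genes, and for CXCL1 it was -1.06, the 19th. With 4 arrays these gaps could not be tested.

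Many members differed between the lines. In the same limma fit, 29 of 35 members differed between A549 and H441 at an adjusted p under 0.05, against 71.9% of all genes, and 23 of 35 did so by at least 2-fold (7 higher in A549 and 16 lower), against 23.7% of all genes (923 higher and 2098 lower, a like split). All 10 members above the table median in 1 line alone are among these 29 and 23. They passed the filter only through the line where they were high, so both counts and the split are partly fixed by the filter. Of the 25 members that reached the table median in both lines, 13 differed at least 2-fold, or 52.0%, against 17.7% of 10576 such genes. The median over all genes of A549 minus H441 was -0.20 as deposited and -0.0064 after quantile normalization. The number of members at least 2-fold apart was then 19, with 7 higher in A549 and 12 lower, against 1322 and 1216 of all genes. That count also takes in members dim in 1 line. Each line is 1 line in culture, so these errors do not cover the spread between cultures of a line.

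CXCL5 read 11.74 with siTAZ and 11.92 with siNTC in A549, against 5.90 with siTAZ and 5.82 with siNTC in H441. The measured ratio was 62.7-fold, against signals that were dim in H441. PTGS2 read 10.94 with siTAZ and 11.11 with siNTC in A549, against 7.85 with siTAZ and 7.79 with siNTC in H441. PTGS2 was 9.24-fold higher in A549 (limma estimate 3.21 ± 0.12 SE, adjusted p = 2.4e-17), followed by CXCL1 (3.89-fold), IL18 (3.39-fold) and CSF1 (2.72-fold). CCL2 and VCAM1, dim in H441, had measured ratios of 5.02-fold and 2.56-fold.

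In the other direction TNFAIP3 was 5.88-fold lower in A549 than in H441 (limma estimate -2.56 ± 0.12 SE, adjusted p = 1.5e-15), CXCL8 4.88-fold and LCN2 4.30-fold. ICAM1, dim in A549, had a measured ratio of 34.6-fold. Other members dim in A549 were lower there by measured ratios of 17.3-fold for CHI3L1, 5.15-fold for CCL28, 4.35-fold for IL32 and 4.18-fold for TRAF1. Ratios of members dim in 1 line are descriptions, given with no p, since these passed the filter only through the other line. RELA and NFKB1 were 2.81-fold and 2.25-fold lower in A549, so that the canonical subunits and the A20 gene were lower in A549 than in H441. The neutrophil-attracting chemokines thus divided by line: CXCL1, CXCL3 (1.30-fold, limma adjusted p = 0.0092) and CXCL5 were higher in A549, CXCL8 was lower in A549, and CXCL2 did not pass the limma test between the lines (1.04-fold, adjusted p = 0.66). NFKBIA, TNFAIP2, LIF, IL1R1 and IL6R did not pass it either, with folds of 1.06 to 1.18.

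**Figure D5:**
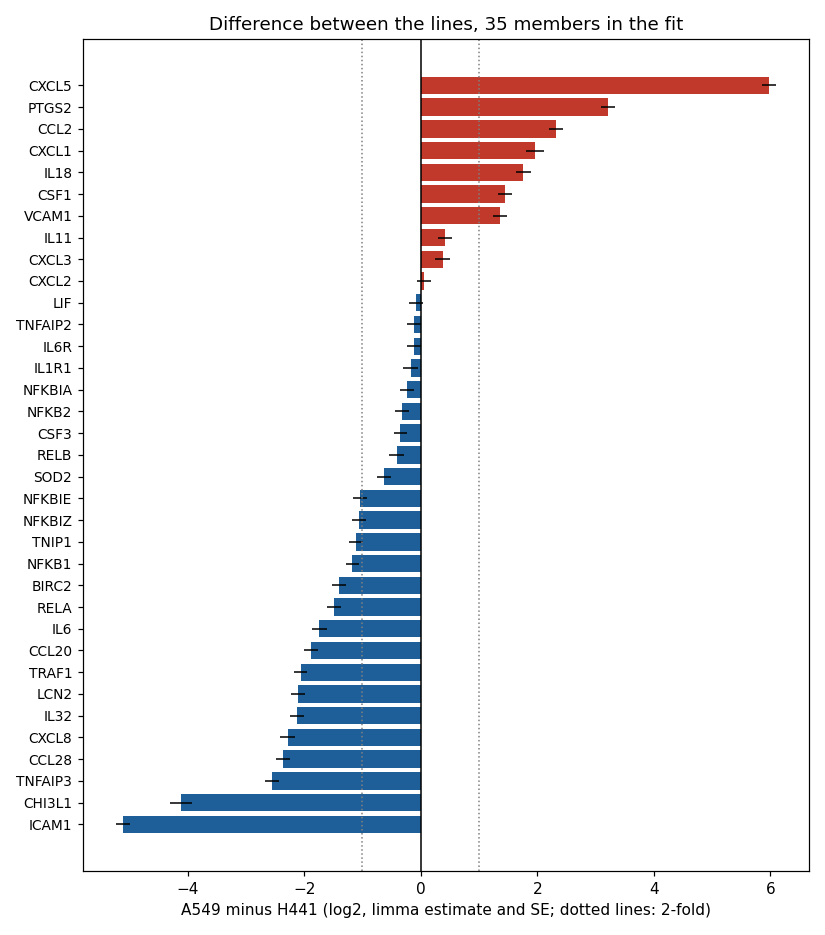
A549 minus H441 (log2, x axis, limma estimate over siTAZ and siNTC arrays, error bars are the moderated SE) for the 35 members in the fit, ordered from highest in A549 to lowest; red bars are higher in A549, blue bars lower, and dotted lines mark 2-fold. CXCL5 at 5.97 and ICAM1 at -5.11 are the extremes.

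Of 75 other genes of the pathway, such as the IKK kinases, TRAF adaptors, receptors and their regulators, 70 were measured and 55 were in the fit. PELI1, a ubiquitin ligase of receptor signalling, rose by 0.55 ± 0.12 over both lines (SE, limma adjusted p = 0.011), with 7.12 with siTAZ and 6.67 with siNTC in A549 and 9.01 with siTAZ and 8.37 with siNTC in H441. MALT1, the paracaspase of the CARD-BCL10-MALT1 complex, fell by 0.48 ± 0.12 (SE, limma adjusted p = 0.027), with 7.86 with siTAZ and 8.41 with siNTC in A549 and 8.36 with siTAZ and 8.77 with siNTC in H441. The siTAZ and siNTC arrays were ordered alike in both lines for both genes. A call over both lines favours genes with the same order, so this is no further support. The other 53 did not pass, so 2 of 55 were called, against 2.47% of all genes. At an unadjusted limma p under 0.05 there were 3 of 55, a lower share than the 13.2% of all genes.

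Both calls were lost after cyclic loess (limma adjusted p = 0.098 for PELI1 and 0.13 for MALT1), without the filter (0.064 and 0.093) and without cell line in the fit, and that of MALT1 after quantile normalization as well (0.072). In A549, 16 of 48 counted genes of this list were below 0, against 48.4% of all genes counted, with a median of 0.03. That count was 20 of 49 after median centring (5966 of 11680 genes in all) or quantile normalization. In H441 29 of 54 were below 0, against 48.8% of all genes counted, with a median of -0.01. After median centring 39 of 54 were below 0 in H441, against 7762 of 11619 genes in all. The H441 median was then -0.095 against -0.084 for all genes, and it was 0.01 after quantile normalization. A 1.5-fold difference was seen for 1 of 54 in H441 (PELI1), against 1.45% of all genes, and for 2 of 48 in A549, against 2.83%. The A549 genes were CEBPD, a C/EBP factor that acts with NF-kB at acute phase genes, and TNFRSF21, a death receptor. CEBPD had a difference of -0.66 in A549 and 0.32 in H441, and TNFRSF21 had -0.60 and -0.22 (limma adjusted p = 0.72 for CEBPD and 0.087 for TNFRSF21).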

How the data were processed

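RNA of A549 and H441 cells with siTAZ or siNTC was measured on 4 whole-transcript arrays, 1 per group. The authors deposited log2 values per probe set. RMA is the method the submitters' processing notes name, without a version, and no source used here says whether all 4 arrays went through it jointly. The number of arrays limits the precision, and p-values rest on how far the 2 lines differ, with no repeat within a line.

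Of 28869 probe sets, 19310 had 1 symbol in the platform annotation, and symbols were updated through the GRCh38.p14 RefSeq gene table. A gene with several probe sets was given by the one with the highest mean. Differences were computed per line, for genes whose higher array reached the table median (6.13). Over both lines limma 3.58.1 (R 4.3.3; lmFit, eBayes, two-sided) was fitted across all 12740 genes whose highest value reached it, with cell line as a block, 1 residual and 22.3 prior degrees of freedom, and Benjamini-Hochberg adjustment at 0.05. The fit was tested on simulated data. Promoter windows are RefSeq's, and motifs were searched on both strands.

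The members, the lists and the tests were chosen with earlier results of these data known. Members were named with all 4 values where they passed the limma test, reached 1.5-fold or were among the 6 largest differences in a line, had opposite signs in the lines at 1.2-fold or more, or were among the 5 largest per direction between the lines, and the subunits, NFKBIA and the receptors whatever their values. A few others are given with values. The alternatives were median centring, quantile normalization, cyclic loess, no filter, a stricter filter, the mean of probe sets, a fit without cell line, a 2-fold threshold and list means.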

Additional observations from a re-analysis of the deposited data

Results flagged for a closer look

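CXCL1 and CHI3L1 had differences of opposite sign in the 2 lines, both at least 1.2-fold. For CXCL1 the difference of siTAZ minus siNTC was -0.74 in A549 and 0.33 in H441, a gap of -1.06. For CHI3L1 it was -0.27 in A549 and 1.11 in H441, a gap of -1.38, with both A549 arrays below the table median. Each value is a single array pair, so the difference between the lines was not tested.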

How the results depend on the processing

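Of the 35 members tested, limma called 2 after median centring (CXCL2 and IL18), and 0 after cyclic loess or without cell line in the fit. Without the filter on dim genes it called 0 of all 40 measured members. An unadjusted limma p under 0.05 was found for 8 members and 1493 genes in all after cyclic loess. Without the filter it was found for 10 of 40 members and 1956 of 18377 genes, and without cell line for 0 members. As deposited it was found for 12 of 35 members and 1688 of 12740 genes. Over all genes the calls were 142 after quantile normalization, 20 after cyclic loess, 92 without the filter and 0 without cell line in the fit, where 11 had an unadjusted p under 0.05. The split of the calls was 123 higher and 277 lower after median centring, against 151 and 164 as deposited. At least 1.5-fold in A549 there were 2 members after quantile normalization (CXCL1 and CXCL2), and in H441 1 member (CHI3L1) and 111 genes in all under the stricter filter, where fewer genes are counted. At 2-fold there were 0 members and 48 genes in A549, and 1 member and 5 genes in H441. The genes 1.5-fold apart in H441 were 26 higher and 220 lower after median centring, against 57 and 116 as deposited. The H441 member median of 0.029 was -0.055 after median centring and -0.025 under the stricter filter, against -0.084 and -0.030 for all genes counted. The A549 member median stayed between -0.17 and -0.10 under each alternative. Between the lines 29 of 35 members and 9158 of 12740 genes were called as deposited. Without the filter 33 of 40 members and 10796 of 18377 genes were called. The stricter filter, where fewer are tested, gave 20 members and 5659 genes. Other alternatives gave 26 to 29 members and 8058 to 9122 genes. Most genes tested as deposited differed between the lines, so these counts say little about the members. The genes called between the lines were 2425 higher and 6733 lower in A549 as deposited, and 4068 and 4141 after quantile normalization. Median centring lowered every H441 difference by the same 0.084, the array medians being 6.25 with siTAZ and 6.17 with siNTC. The cause of the shifts under the other alternatives was not tested. The fit with cell line as a block pairs siTAZ with siNTC within each line; no pairing by replicate number exists, since each group has 1 array. With gaps, the CXCL1 and CXCL2 promoters were 91.5% identical, against 72.1% without. Single arrays cannot show changes below the unmeasured spread between cultures.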
